A study of Homo sapiens with 9 samples.

Results

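The SLC16 genes encode the monocarboxylate transporters, and 9 of them are described here in cells labelled H441 that were exposed to 2 compounds. The 9 were taken by gene symbol from the deposited table of 45754 genes, which holds 14 SLC16 genes in all: SLC16A1, SLC16A3, SLC16A4, SLC16A5, SLC16A6, SLC16A7, SLC16A9, SLC16A13 and SLC16A14. SLC16A6 was chosen by its measured FPKM, for its large rise under the compound RSGL. Its values in the comparisons that involve RSGL are therefore given as a description with no test. The control libraries also entered that choice, so the test of SLC16A6 in BSGL against control is not fully independent of it. The other 8 genes were taken as its relatives.

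RNA was sequenced from 9 libraries of a human lung cancer line labelled H441, in 3 groups of 3. The RSGL group received 10 µM of RSGL for 24 h, the BSGL group received 10 µM of BSGL for 24 h, and the control group received 0.1% DMSO, the solvent, for 24 h. RSGL and BSGL are known here only by these code names. All 9 libraries carry the line name H441, but the genotype tag reads A549 in the RSGL group and H460 in the BSGL and control groups, so that a difference of cell line and the effect of RSGL cannot be told apart by that tag.

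Levels are in FPKM, which counts the fragments of a gene relative to its length and to the total of its library. Each library held 16720414 to 18738947 fragments assigned to genes, and 12213 to 12338 genes reached 1 FPKM. Of 20046 protein-coding genes, 0 were at 5 FPKM or more in every library of 1 group and at 0.1 FPKM or less in every library of another. The 9 lung lineage markers examined, among them NKX2-1 and the surfactant genes, were all low, with a highest value of 1.00 FPKM (NAPSA) and SCGB3A2 at 0. The keratins KRT7, KRT8 and KRT18 were abundant, and the 6 epithelial markers summed to 1278 to 1304 FPKM in RSGL libraries, 1727 to 1781 FPKM in BSGL libraries and 1716 to 1758 FPKM in control libraries. KRT7, KRT8, KRT18 and CDH1 fell under RSGL against control, while KRT19, at 3.53 to 4.69 FPKM in RSGL libraries, 1.65 to 1.97 FPKM in BSGL libraries and 1.82 to 2.18 FPKM in control libraries, rose. EPCAM stayed under 1 FPKM throughout. The 6 macrophage markers summed to 116.8 to 121.8 FPKM in RSGL, 47.1 to 48.2 FPKM in BSGL and 42.6 to 43.0 FPKM in control libraries. That sum was nearly all CD68, a lysosomal membrane protein, while LYZ and MARCO were at or near 0. CD14, the other macrophage marker past the filter of the test, went the other way, with means of 0.346 FPKM under RSGL, 1.64 FPKM under BSGL and 2.11 FPKM in control, and fell under RSGL against control (log2(FPKM + 1) difference -1.22, limma with Benjamini-Hochberg adjustment, adjusted p = 1.30e-05). The 6 fibroblast markers summed to at most 7.62 FPKM, and none of the 6 endothelial markers reached 0.1 FPKM. The part of these marker differences in the results below was not tested.

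Monocarboxylate transporters sit in the plasma membrane. The best known of them, encoded by SLC16A1, SLC16A7, SLC16A8 and SLC16A3, carry lactate, pyruvate and ketone bodies together with a proton. In cancer cells SLC16A3 is known for the export of lactate made by glycolysis, and SLC16A1 and SLC16A3 need the chaperone basigin (BSG) to reach the membrane. Other relatives carry aromatic amino acids (SLC16A10), creatine (SLC16A12) or carnitine (SLC16A9), and several, among them SLC16A4 and SLC16A14, have no settled substrate. In zebrafish the SLC16A6 counterpart exports the ketone body beta-hydroxybutyrate from hepatocytes.

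Promoter sequences from RefSeq (GRCh38.p14), running from 250 bases before to 50 after an annotated start, were at hand for 5 of the 9 genes. Those of SLC16A4 and SLC16A14 are shown because, of these 5, they had the highest ratios of the RSGL mean to the control mean, and both stood higher in every RSGL library than in every other library. The SLC16A4 promoter lies at chr1:110390977-110391276 and the SLC16A14 promoter at chr2:230068875-230069174, both on the minus strand, and the capital marks the annotated start.
SLC16A4: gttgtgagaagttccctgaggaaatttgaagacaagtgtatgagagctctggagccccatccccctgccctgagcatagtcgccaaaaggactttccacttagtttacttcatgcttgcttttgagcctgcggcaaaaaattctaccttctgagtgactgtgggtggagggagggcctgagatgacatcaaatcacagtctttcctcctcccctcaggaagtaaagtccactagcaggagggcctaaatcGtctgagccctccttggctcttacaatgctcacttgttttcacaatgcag
SLC16A14: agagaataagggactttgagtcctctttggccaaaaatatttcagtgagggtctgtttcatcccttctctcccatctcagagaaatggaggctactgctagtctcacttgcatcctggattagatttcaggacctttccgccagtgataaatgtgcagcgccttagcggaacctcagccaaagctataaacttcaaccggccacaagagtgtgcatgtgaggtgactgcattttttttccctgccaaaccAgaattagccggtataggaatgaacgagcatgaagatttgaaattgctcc

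The annotated start lies 944 bases inside the end of the SLC16A4 gene as the deposited table has it, and 75 bases inside that of SLC16A14. The pair was searched on both strands for 4 motifs of stress and growth response factors. Neither window held the AP-1 letters TGANTCA, which 7.71% of 35116 RefSeq promoters of this length hold, or the cAMP response element TGACGTCA, held by 1.85%. Neither held the C/EBP-ATF letters TGATGNAAT, held by 0.991% of promoters, or the E-box CACGTG, held by 7.26%. Among all 11 promoters of the 5 genes, 1 match was found, an E-box that begins 47 bases before an SLC16A9 start. A missing match says only that these letters are not in the window.

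SLC16A6, the gene that led to this set, lies on the minus strand of chromosome 17, from 68267026 to 68291264 (GRCh38 sequence names), with gene ID 9120. Its level was 73.6, 71.2 and 71.7 FPKM in the RSGL libraries, 10.5, 11.0 and 11.4 FPKM in the BSGL libraries and 10.6, 10.7 and 11.1 FPKM in the control libraries. Every RSGL library thus stood far above the other 6, whose values intermingled. The means were 72.2 ± 1.26 FPKM under RSGL, 11.0 ± 0.414 FPKM under BSGL and 10.8 ± 0.274 FPKM in control (SD, n = 3 each), so that the RSGL mean was 6.68-fold the control mean and 6.58-fold the BSGL mean. Behind these values lie 5769 to 6604 fragments per RSGL library, 927 to 995 per BSGL library and 924 to 958 per control library.

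On the scale used for tests, log2(FPKM + 1), SLC16A6 differed by 2.63 ± 0.04 (SE) between RSGL and control, which was rank 6 of 12775 genes ordered by that difference. BSGL left no detectable change: the difference from control was 0.02, with a 95% interval of -0.06 to 0.10 (limma with Benjamini-Hochberg adjustment, adjusted p = 0.974). FPKM is a share of a library's fragments, and in bulk RNA a change in the number of cells that express a gene and a change in RNA per cell cannot be told apart.

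**Figure D1:**
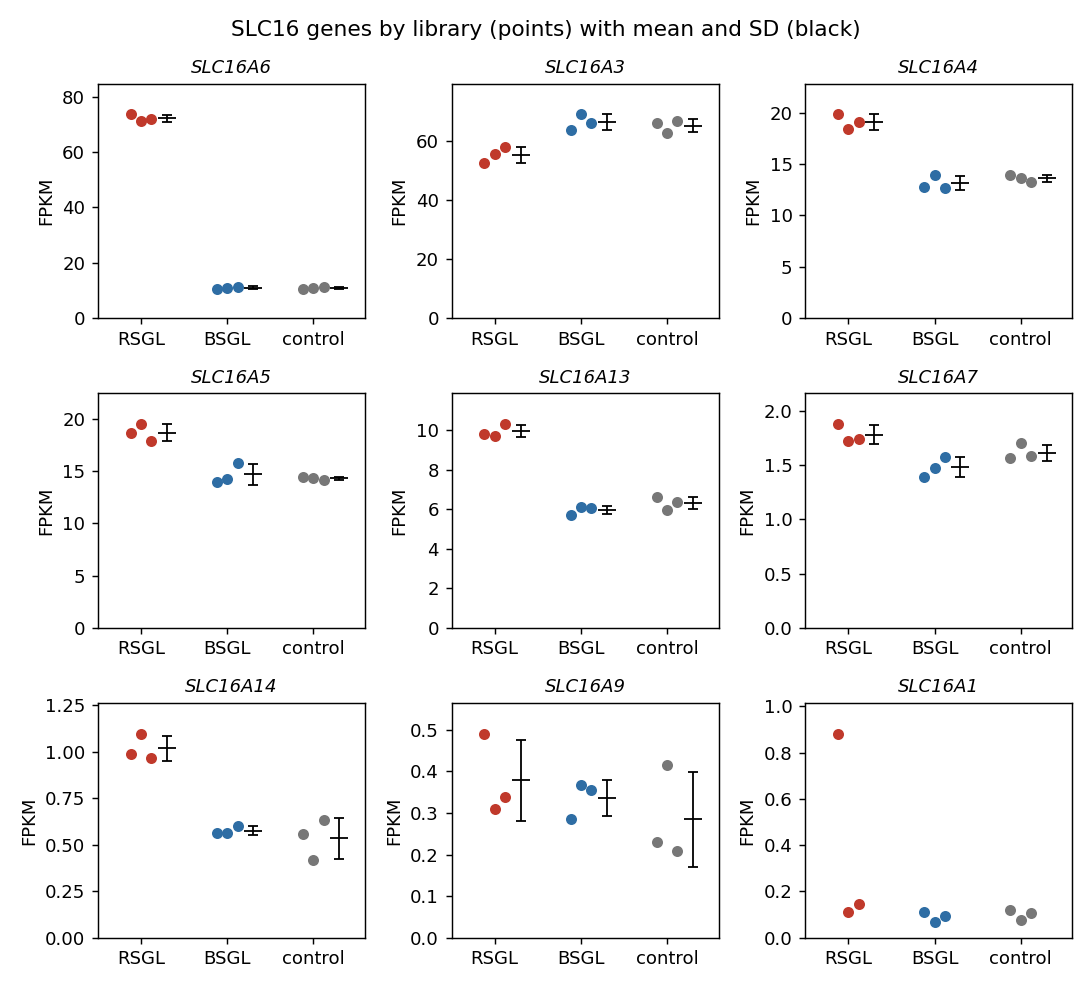
FPKM of the 9 SLC16 genes in each library, 1 panel per gene with its own linear axis, in RSGL, BSGL and control libraries. Points are libraries and the mark beside them is the mean with its SD (n = 3), left out for SLC16A1; SLC16A6 stands at 71.2 to 73.6 FPKM in RSGL libraries, against 10.5 to 11.4 FPKM in BSGL and control libraries.

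SLC16A6 is overlapped by ARSG, a lysosomal sulfatase gene on the opposite strand, and no source used here gives the strand setting of the counting. ARSG was far lower, at 1.68 to 1.77 FPKM in RSGL libraries, 0.918 to 1.02 FPKM in BSGL libraries and 0.735 to 1.02 FPKM in control libraries, and it rose under RSGL against control (log2 difference 0.53 ± 0.08 SE, limma adjusted p = 0.00024). It passed the filter of the test through its RSGL libraries, with means under 1 FPKM under BSGL and in control. AMZ2, a peptidase gene that lies within 100 kb, averaged 51.0 FPKM under RSGL, 41.1 FPKM under BSGL and 41.0 FPKM in control, and rose as well (log2 difference 0.31 ± 0.04 SE, adjusted p = 6.97e-05). The share of ARSG reads in the SLC16A6 value was not tested.

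The profile of SLC16A6 over the 9 libraries was closest to that of HMOX1, which encodes the haem-degrading enzyme haem oxygenase. Closeness was the root mean square difference between log2 profiles centred on control, over 10908 protein-coding genes, and it was 0.103 for HMOX1. HMOX1 averaged 377.3 ± 7.37 FPKM under RSGL, 57.0 ± 1.85 FPKM under BSGL and 62.4 ± 1.63 FPKM in control (SD, n = 3 each). The next closest were TRIB3, a stress-induced pseudokinase, at 0.150, and DUSP5, a phosphatase of ERK kinases, at 0.153. STC2, a secreted glycoprotein, followed at 0.175 and TMEM158, a membrane protein, at 0.190. Their log2 differences between RSGL and control were 2.58 for HMOX1, 2.40 for TRIB3, 2.86 for DUSP5, 2.35 for STC2 and 2.52 for TMEM158. These genes were picked for likeness, so the values are a description.

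Of the other 8 SLC16 genes, 5 were measured well enough to be tested (at least 1 FPKM in at least 3 libraries) and 3 were not. Under RSGL against control, SLC16A4, SLC16A5 and SLC16A13 rose, SLC16A3 fell and SLC16A7 did not pass the test. That made 4 of 5 called at an adjusted p under 0.05, where 54.8% of all 12775 tested genes were called, 27.2% as higher and 27.6% as lower. In all 5 the RSGL and control libraries did not overlap, as was the case for 61.2% of tested genes. The median log2 difference of the 5 was 0.36, against -0.000854 for all tested genes. Against BSGL, the same 4 passed in the same directions and SLC16A7 also passed as higher, with a background of 54.0% called, 26.5% as higher and 27.5% as lower. Between RSGL and BSGL libraries 61.2% of tested genes did not overlap, and all 5 were among them. The comparisons of RSGL with control and with BSGL share the RSGL libraries, so they are not independent.

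SLC16A3, the lactate exporter also called MCT4, was the most abundant of the 9 genes in BSGL and control libraries and fell under RSGL. It lies on chromosome 17 from 82228406 to 82239499 on the plus strand. Its level was 52.5, 55.6 and 57.8 FPKM in RSGL libraries, 63.7, 69.1 and 66.1 FPKM in BSGL libraries and 66.0, 62.8 and 66.8 FPKM in control libraries. All RSGL libraries were lower than all others, and the BSGL and control values overlapped. The RSGL mean was 0.848-fold the control mean, with a log2 difference of -0.23 ± 0.05 (SE, limma adjusted p = 0.00153). Against BSGL the difference was -0.26 (adjusted p = 0.000895). A change at least as large was seen in 44.9% of tested genes between RSGL and control. The last bases of SLC16A3 overlap CSNK1D on the opposite strand, a casein kinase gene that averaged 32.3 FPKM under RSGL, 29.6 FPKM under BSGL and 29.8 FPKM in control, and rose under RSGL against control (log2 difference 0.11 ± 0.04 SE, adjusted p = 0.0248).

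SLC16A13, whose product carries lactate in mouse liver, had the largest called change of the 5 under RSGL. On the plus strand of chromosome 17 from 7036075 to 7040121, it overlaps no other gene of the table. Its level was 9.82, 9.72 and 10.3 FPKM in RSGL libraries, 5.71, 6.11 and 6.07 FPKM in BSGL libraries and 6.60, 5.98 and 6.38 FPKM in control libraries. The RSGL libraries lay clear of both other groups, at 1.57-fold the control mean. The log2 difference was 0.58 ± 0.05 (SE, limma adjusted p = 4.65e-06) from control and 0.65 (adjusted p = 2.35e-06) from BSGL. Between RSGL and control, 12.6% of tested genes moved at least as far.

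SLC16A4, which has no settled substrate, lies on chromosome 1 from 110362851 to 110391970 on the minus strand. It stood at 19.8, 18.4 and 19.0 FPKM in RSGL libraries, 12.8, 13.9 and 12.7 FPKM in BSGL libraries and 13.9, 13.6 and 13.2 FPKM in control libraries. Again the RSGL libraries were all higher than the other 6. The RSGL mean was 1.40-fold the control mean, a log2 difference of 0.46 ± 0.05 (SE, limma adjusted p = 1.89e-05), and the difference from BSGL was 0.51 (adjusted p = 9.75e-06). RBM15, an RNA-binding protein gene that overlaps it on the opposite strand, averaged 2.02 FPKM under RSGL, 2.40 FPKM under BSGL and 2.32 FPKM in control, with no call (adjusted p = 0.112 for RSGL against control).

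SLC16A5, whose product carries drugs such as bumetanide in other systems, lies on chromosome 17 from 75087727 to 75106590 on the plus strand. Its libraries gave 18.6, 19.5 and 17.9 FPKM under RSGL, 14.0, 14.3 and 15.8 FPKM under BSGL and 14.4, 14.3 and 14.2 FPKM in control. The RSGL libraries were the 3 highest, and the BSGL libraries spread on both sides of the control ones. The RSGL mean was 1.31-fold the control mean, a log2 difference of 0.36 ± 0.05 (SE, limma adjusted p = 0.000166), and the difference from BSGL was 0.33 (adjusted p = 0.000333).

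SLC16A7, a high-affinity carrier of lactate and pyruvate, was near the lower limit of the tested range. Its gene runs from 59595934 to 59789855 on the plus strand of chromosome 12. It stood at 1.88, 1.72 and 1.74 FPKM in RSGL libraries, 1.39, 1.47 and 1.57 FPKM in BSGL libraries and 1.56, 1.70 and 1.58 FPKM in control libraries. The RSGL libraries were above all others by a small margin. The log2 difference from control, 0.09 with a 95% interval of -0.05 to 0.23, did not pass (limma adjusted p = 0.255), and that from BSGL, 0.16 with an interval of 0.03 to 0.30, passed narrowly (adjusted p = 0.0450). That call was kept in 7 of 20 alternative settings, in which the adjusted p ran from 0.00236 to 0.137.

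**Figure D2:**
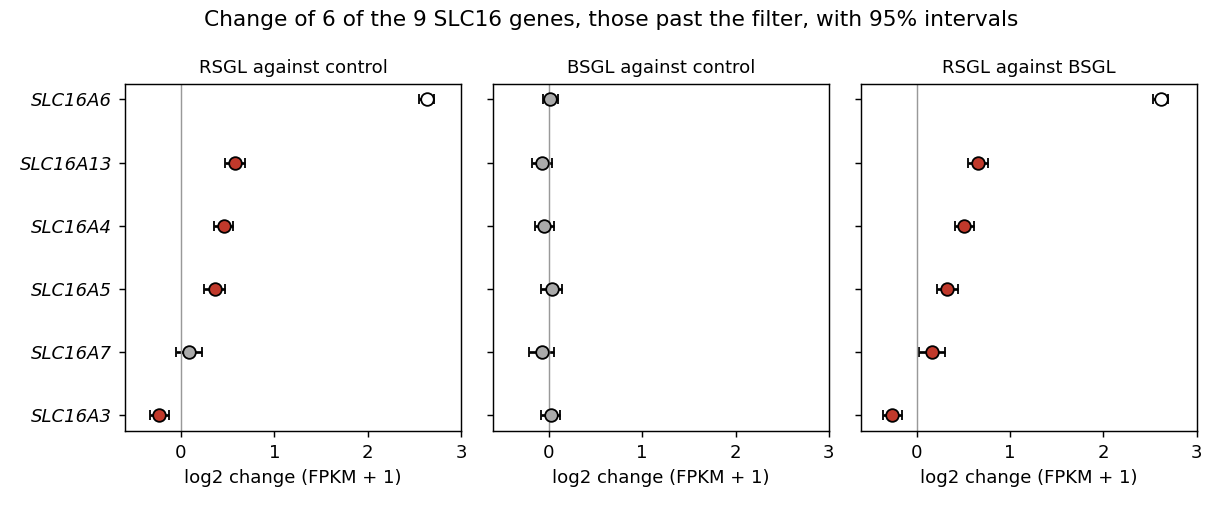
Log2(FPKM + 1) differences for the 6 of the 9 SLC16 genes that were tested, with 95% intervals, in RSGL against control, BSGL against control and RSGL against BSGL. White points are SLC16A6 values given as a description, red points passed an adjusted p of 0.05 and grey points did not; no point passes in BSGL against control.

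The 3 genes under the test's filter had few fragments. SLC16A14, an orphan member on chromosome 2 from 230034974 to 230068999, had 0.990, 1.10 and 0.968 FPKM in RSGL libraries, 0.562, 0.563 and 0.603 FPKM in BSGL libraries and 0.555, 0.415 and 0.633 FPKM in control libraries. The RSGL libraries, with 91 to 101 fragments each, stood above the BSGL libraries with 54 to 60 and the control libraries with 42 to 62, and the RSGL mean was 1.90-fold the control mean. With the filter lowered to 0.1 FPKM, which let in 19411 genes of which 39.2% were called, SLC16A14 was higher under RSGL than control by 0.40 ± 0.07 (SE, limma adjusted p = 0.00172) and than BSGL by 0.36 (adjusted p = 0.00338, with 38.6% of genes called in that comparison). It overlaps 3 other loci of the table.

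SLC16A9, a carnitine carrier on chromosome 10 from 59650764 to 59710079, had 0.490, 0.309 and 0.339 FPKM in RSGL libraries, 0.286, 0.368 and 0.354 FPKM in BSGL libraries and 0.230, 0.416 and 0.209 FPKM in control libraries. The 3 groups overlapped, and with the lowered filter the difference between RSGL and control was 0.10 (limma adjusted p = 0.356).

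SLC16A1, the widespread lactate carrier MCT1, could not be read as a level. The table places it on a patch scaffold with a length of 9452 bases, 1.78 times the exon length of the gene in GENCODE v29. It was listed at 0.881, 0.112 and 0.145 FPKM in RSGL libraries, 0.111, 0.0682 and 0.0931 FPKM in BSGL libraries and 0.121, 0.0755 and 0.106 FPKM in control libraries. The first RSGL library alone stood out, with 165 fragments against 19 and 25 in the other two. Without it the log2 difference from control was 0.04, against 0.28 with it. Among protein-coding genes matched to a GENCODE v29 exon length, 1091 were placed on scaffolds, of which 18.3% reached 1 FPKM on average, with a median of 0.0157 FPKM, against 57.6% and 2.24 FPKM for the 17672 placed on chromosomes. Whether fragments of SLC16A1 were assigned elsewhere was not tested.

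BSGL and RSGL were compared at the same dose and time, as 1 pair of compounds. Under BSGL against control, 0 of the 6 genes tested among the 9, SLC16A6 included, were called by limma, 0 had an unadjusted p under 0.05, and 0 were called by limma-voom on recovered fragments. The background was 11 of 12775 genes called, or 0.0861% (0.0470% higher and 0.0391% lower), with 857 at an unadjusted p under 0.05 and 31 called by limma-voom. The 95% intervals of the log2 difference were -0.08 to 0.12 for SLC16A3, -0.15 to 0.05 for SLC16A4 and -0.08 to 0.14 for SLC16A5. They were -0.18 to 0.04 for SLC16A13 and -0.21 to 0.06 for SLC16A7. Changes within these bounds could not be seen with 3 libraries per group.

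Summed over the 9 genes, RSGL libraries held 177.7 to 180.0 FPKM, with means of 178.8 ± 1.17 FPKM under RSGL, 113.5 ± 3.99 FPKM under BSGL and 112.8 ± 2.37 FPKM in control (SD, n = 3 each). Leaving out SLC16A6 the sums were 106.6 ± 1.66 FPKM under RSGL, 102.5 ± 3.70 FPKM under BSGL and 102.0 ± 2.29 FPKM in control, so that the difference in the sum lay mostly in that gene. SLC16A6 made up 40.4% of the sum under RSGL, 9.67% under BSGL and 9.59% in control. SLC16A3 made up 30.9% under RSGL, 58.4% under BSGL and 57.8% in control. SLC16A6, which entered for its rise under RSGL, was thus above SLC16A3 in each RSGL library. It was below SLC16A3, SLC16A5 and SLC16A4 in each of the others.

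Among the 9 genes apart from SLC16A1, the order under RSGL was SLC16A6, SLC16A3, SLC16A4, SLC16A5, SLC16A13, SLC16A7 and SLC16A14, with overlap only between SLC16A4 and SLC16A5. Under BSGL and in control it was SLC16A3, SLC16A5, SLC16A4, SLC16A6, SLC16A13, SLC16A7 and SLC16A14, with no overlap between neighbours. SLC16A9 was lower than SLC16A14 on average in each group, and SLC16A1 was not ranked. The order, and the sums and shares given above, rest on the gene lengths of the table. These were 0.489 times the GENCODE v29 exon length for SLC16A3 and 1.46 times for SLC16A5. The shares can change with the lengths used, and so can places in the order, among them the second place of SLC16A3 under RSGL. SLC16A3, SLC16A5, SLC16A6 and SLC16A13 lie on chromosome 17, which makes 4 of 9, where 5.13% of protein-coding genes of the table lie on that chromosome. The 9 were chosen around SLC16A6, itself among these 4, and the share was not tested.

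**Figure D3:**
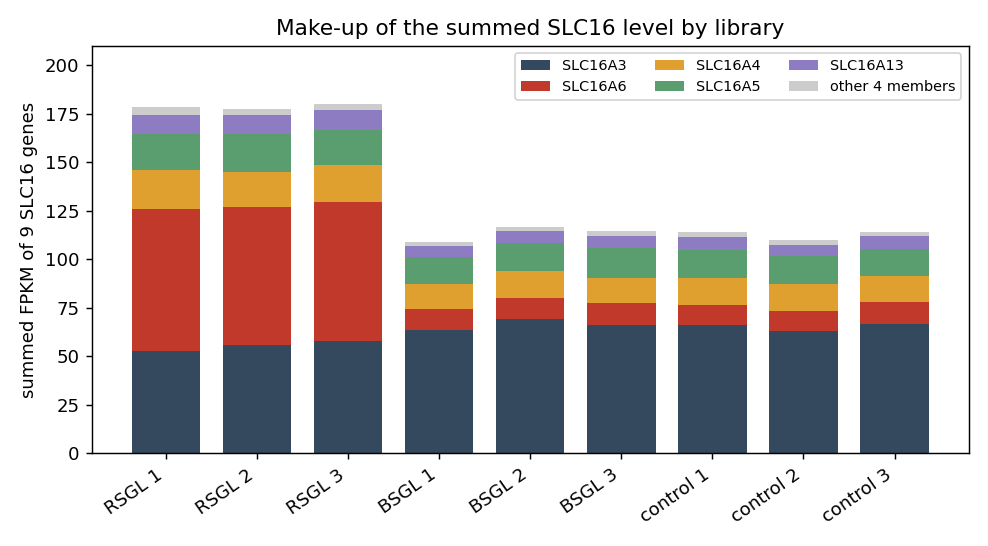
Stacked bars of the FPKM of the 9 SLC16 genes in each RSGL, BSGL and control library. SLC16A6 fills 40.4% of the bars on average under RSGL, against 9.67% under BSGL and 9.59% in control.

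Outside the 9, SLC16A8, SLC16A10, SLC16A11 and SLC16A12 did not exceed 0.579 FPKM in any library and were not tested. These carry lactate in the retinal pigment epithelium (SLC16A8), aromatic amino acids (SLC16A10) and creatine (SLC16A12), while SLC16A11 is known from diabetes genetics.

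The partners of these carriers were taken from lists of the pathway. BSG, the chaperone of SLC16A1 and SLC16A3, averaged 238.5 ± 6.13 FPKM under RSGL, 252.2 ± 8.59 FPKM under BSGL and 257.7 ± 3.72 FPKM in control. It fell slightly under RSGL (log2 difference from control -0.11 ± 0.03 SE, limma adjusted p = 0.0176), a call lost without the first control library (adjusted p = 0.0580) or without the first RSGL library (0.0659). EMB, the alternative chaperone, stayed at or under 0.176 FPKM. Of the sodium-coupled carriers of monocarboxylates, SLC5A8 was listed at 0 in all libraries and SLC5A12 did not exceed 0.0149 FPKM. Like SLC16A1, SLC5A8 was placed on a scaffold, so its 0 could not be read as absence.

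Among lactate dehydrogenases, LDHA fell strongly under RSGL. LDHA, the subunit that favours making lactate from pyruvate, stood at 451.6, 439.8 and 430.3 FPKM in RSGL libraries, 690.4, 685.6 and 700.4 FPKM in BSGL libraries and 710.9, 722.7 and 726.5 FPKM in control libraries. The groups under RSGL and in control lay far apart, with a log2 difference of -0.71 ± 0.03 (SE, limma adjusted p = 3.03e-08) and an RSGL mean of 0.612-fold the control mean. LDHB, the subunit that favours lactate use, averaged 569.6 FPKM under RSGL, 601.3 FPKM under BSGL and 589.5 FPKM in control, with no call between RSGL and control (adjusted p = 0.345) except when libraries were scaled to a common sum (0.0362). LDHD, the mitochondrial D-lactate dehydrogenase, averaged 1.20 FPKM under RSGL, 0.806 FPKM under BSGL and 1.02 FPKM in control. It was called higher under RSGL only against BSGL (log2 difference 0.28, adjusted p = 0.0244, and 0.274 against control). LDHD passed the filter of the test with its RSGL libraries, and no BSGL library reached 1 FPKM. With the filter lowered to 0.1 FPKM, the limma adjusted p against BSGL was 0.0249. LDHC and LDHAL6B stayed at or under 0.386 FPKM and were not tested.

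Of the 14 genes of mitochondrial pyruvate entry and oxidation, all were tested, and 4 rose, 7 fell and 3 were not called under RSGL against control, with a median log2 difference of -0.12. Over all tested genes 27.2% were called higher and 27.6% lower, with a median of -0.000854. PDP1, the phosphatase that switches pyruvate dehydrogenase on, had the largest change, at 14.0, 13.7 and 13.4 FPKM in RSGL libraries, 7.05, 7.07 and 6.64 FPKM in BSGL libraries and 6.43, 7.32 and 6.90 FPKM in control libraries (log2 difference from control 0.90 ± 0.05 SE, limma adjusted p = 2.81e-07). PDK2, a kinase that switches the enzyme off, averaged 4.04 FPKM under RSGL, 6.19 FPKM under BSGL and 6.10 FPKM in control, and fell (-0.50 ± 0.08 SE, adjusted p = 0.000611). PC, pyruvate carboxylase, averaged 3.94 FPKM under RSGL, 6.19 FPKM under BSGL and 5.86 FPKM in control, and fell (-0.48 ± 0.04 SE, adjusted p = 1.03e-05). MPC1, a subunit of the mitochondrial pyruvate carrier, averaged 2.19 FPKM under RSGL, 1.65 FPKM under BSGL and 1.41 FPKM in control, and rose (0.41 ± 0.10 SE, adjusted p = 0.00770). Also called lower were PDHB (-0.40), DLD (-0.33), DLAT (-0.18) and PDHA1 (-0.16), which encode subunits of the pyruvate dehydrogenase complex. PDK3, another kinase, was lower too (-0.36). Also called higher were PDP2, another phosphatase (0.38), and PDK1, a further kinase (0.19, limma adjusted p = 0.0482). The PDK1 call was lost with the filter lowered to 0.1 FPKM (limma adjusted p = 0.0513). Over 20 alternatives, the count of this list called higher ran from 3 to 4 and that called lower from 7 to 8. Activity of the enzyme was not measured.

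A further list covered other transporters and enzymes of taurine, creatine and carnitine. Of its 15 genes, 10 were tested, of which 4 rose, 2 fell and 4 were not called, with a median of 0.14. That share is close to the 54.8% called over all tested genes. SLC22A4, an organic cation carrier of the carnitine transporter family, led that list at 6.25, 7.06 and 6.92 FPKM in RSGL libraries, 2.59, 2.79 and 3.41 FPKM in BSGL libraries and 2.68, 2.99 and 3.01 FPKM in control libraries (log2 difference from control 0.99 ± 0.08 SE, limma adjusted p = 4.34e-06). SLC6A6, the taurine transporter, rose to 58.2 FPKM on average under RSGL, with 42.7 FPKM under BSGL and 43.2 FPKM in control (0.42 ± 0.04 SE, adjusted p = 2.59e-05). SLC6A8, the creatine transporter, averaged 4.63 FPKM under RSGL, 3.39 FPKM under BSGL and 3.51 FPKM in control, and rose (0.32 ± 0.07 SE, adjusted p = 0.00396). CSAD, an enzyme of taurine synthesis, averaged 1.82 FPKM under RSGL, 1.96 FPKM under BSGL and 2.27 FPKM in control. It fell (-0.21 ± 0.07 SE, adjusted p = 0.0208), a call lost without the first control library (0.0527), the second control library (0.0818) or the third RSGL library (0.0683).

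Under BSGL against control, 0 genes of these lists were called by limma. In the pyruvate list 2 of 14 had an unadjusted p under 0.05, where 857 of all 12775 tested genes did. Limma-voom called 1 of the 14, where it called 31 over all, and that gene was PDK4, another pyruvate dehydrogenase kinase, named here after its values were seen. PDK4 averaged 32.1 FPKM under RSGL, 37.9 FPKM under BSGL and 32.3 FPKM in control, and its log2 difference of 0.23 between BSGL and control had an adjusted p of 0.168 with limma and 0.0153 with limma-voom. In the other pathway lists described here 0 genes had an unadjusted p under 0.05 and limma-voom called 0.

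**Figure D4:**
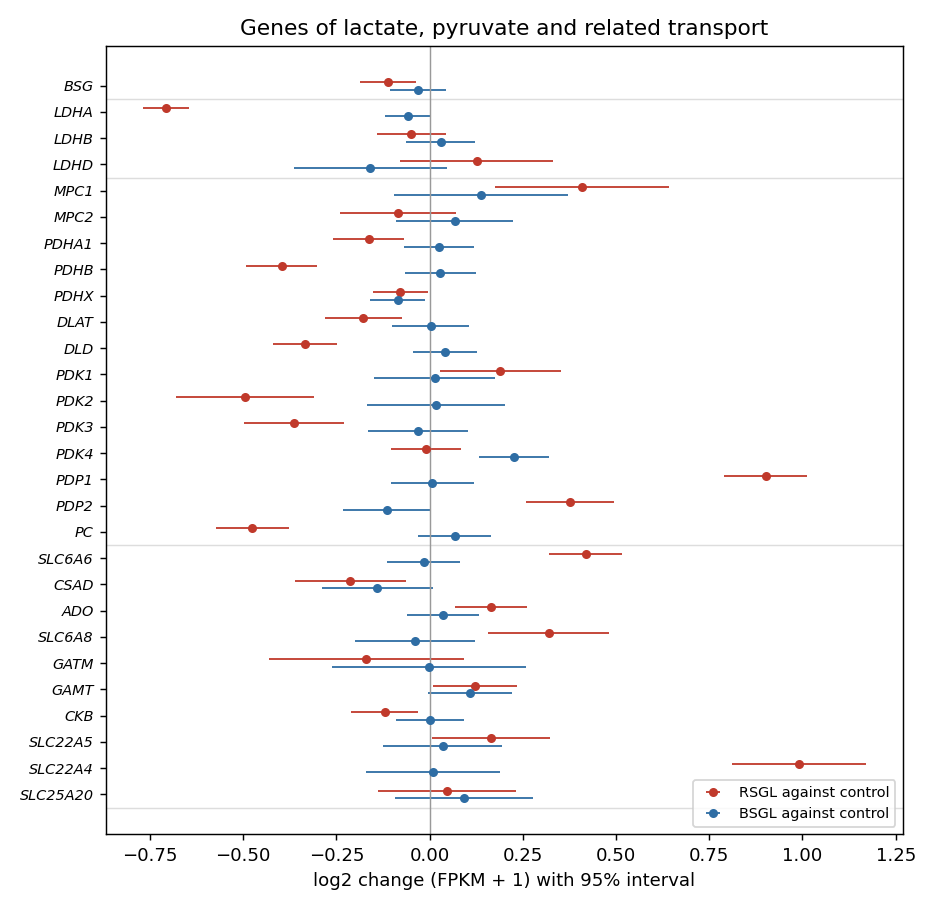
Log2(FPKM + 1) differences from control of the tested genes of the 4 pathway lists described, with RSGL in red and BSGL in blue. LDHA lies at -0.71 and SLC22A4 at 0.99 under RSGL, while BSGL points run from -0.16 (LDHD) to 0.23 (PDK4), with none called by limma.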

How the data were processed

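RNA of 9 libraries was extracted with TRIzol and prepared with a NEBNext Ultra kit, per the labels' protocols. DESeq2 1.16.1, featureCounts 1.5.0-p3 and HISAT2 2.0.5 appear in the submitters' processing notes with no role, and no source used here gives the strand setting. Per the file headers, the deposited values are FPKM, computed by the authors. All values under 300 fragments came out whole within 0.01 once multiplied by gene length and scaling total, and the recovered fragments were 92.3 to 93.9% of those totals.

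The tests covered the 12775 genes that reached 1 FPKM in 3 or more of the 9 libraries. Values were log2(FPKM + 1), which understates changes of low genes. Limma 3.58.1 (R 4.3.3, statmod 1.5.0) fitted the group means of all 9 libraries jointly, with trend and robust variance, and Benjamini-Hochberg adjustment ran over the whole table of tested genes. A call is an adjusted p under 0.05. RSGL was called against control in 7005 genes and against BSGL in 6904. Limma-voom on recovered fragments called 7279 in RSGL against control, 31 in BSGL against control and 7164 in RSGL against BSGL. The steps were tested on simulated data. No label says that the 3 libraries of a group came from separate cultures, so p-values reflect only how these samples spread, in part perhaps for technical reasons. The variance between replicates was 4.13 to 9.28 times that of sampling noise (chi-square per degree of freedom), so none was merged.

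The genes and lists were chosen with earlier results of these data known. Named were the 9 genes, the other SLC16 genes, the chaperones, sodium-coupled carriers and lactate dehydrogenases, up to 4 called genes per further list with the largest change under RSGL, and the 5 protein-coding genes most like SLC16A6. Genes that overlap or adjoin an SLC16 gene were named beside it after their values were seen. The further called genes of the pyruvate list were also named after their values were seen. Some results that the rule takes in are not reported here. Promoters come from RefSeq (GRCh38.p14).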

Additional observations from a re-analysis of the deposited data

How the results depend on the processing

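SLC16A3, SLC16A4, SLC16A5 and SLC16A13 kept their direction and call in 20 of 20 alternatives, both in RSGL against control and in RSGL against BSGL. The alternatives changed the filter, the pseudocount, the scaling, the model or the libraries. The description of SLC16A6 stayed between 2.62 and 2.74 on the log2 scale in RSGL against control. Leaving out each library in turn left 6294 to 6869 genes called in RSGL against control, 6166 to 6923 in RSGL against BSGL and 0 to 8 in BSGL against control, with 3 to 4 of the SLC16 genes besides SLC16A6 called higher and 1 lower under RSGL. The 11 genes called in BSGL against control became 0 with no filter, a filter of 0.1 FPKM, scaling to a common sum, a model with neither trend nor robust variance, only the 2 groups compared, or the replicate block, and 31 with limma-voom. The cause was not tested. With the replicate block, 6792 genes were called in RSGL against control and 6696 in RSGL against BSGL. Libraries of the same number did not deviate together (correlations -0.212 to 0.121), so the numbers were not taken to pair them. Besides the SLC16A7 call, no call on an SLC16 gene changed under the block. In BSGL against control, uncalled differences changed sign for SLC16A3 (-0.00465 with a common sum, -0.00297 without the second control library, -0.00624 without the second BSGL library), SLC16A5 (-0.0177 without the third BSGL library) and SLC16A6 (-0.00771 with a common sum, -0.00540 without the third BSGL library). Leaving out each library in turn moved these values up to at most 0.0514 for SLC16A3, 0.0639 for SLC16A5 and 0.0445 for SLC16A6, each without the first BSGL library. In the taurine, creatine and carnitine list, 2 genes called lower became 0 or 1 in 7 alternatives. SLC16A9 and SLC16A14 rest on few fragments, with under 1 FPKM in most libraries.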
